A study of Ovis aries with 18 samples.

Results

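In the perirenal fat of fetal sheep, 53 of the 5810 genes measured had allelic imbalance (AI) in opposite directions in different fetuses: at 1 and the same SNP the reference allele gave the larger share of reads in some heterozygous animals and the smaller share in others. A gene was taken when it had an autosomal SNP at which, among animals called heterozygous with 30 or more reads, at least 2 had a reference share above 0.5 by more than 3 standard errors of counting and at least 2 lay below 0.5 by as much. The standard error was the square root of 0.25 divided by the number of reads. A list of 16 genes, among them UCP1, PDK4, IGF2 and IGF2R, was left out by name, and 9 of these met the same criterion. In all, 90 SNPs of the 53 genes met it, and 36 of the genes held a single such SNP. Outside that list, 5379 autosomal genes had a SNP with at least 4 heterozygous animals at 30 or more reads and so could have met it, of which the 53 genes are 0.985%, and of the 22124 SNPs of that kind the 90 are 0.407%. The genes were chosen by their reference shares, so the shares below are a description and carry no test.

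The samples were 18 singleton fetuses at 132 days post conception, wild type and pure bred merino, from ewes that were not treated, and all had the same sire and unrelated dams. Whole perirenal adipose tissue was sequenced, so that a share is an average over all of its cell types. The labels give 16 females and 2 males, and there is 1 group with no treatment. Reads counted over all SNPs numbered 2970824 to 5334585 per library. Fetus 10, labelled female, was heterozygous at 29.1% of X-linked SNPs, next to 25.4% and 32.4% in the males and 54.1% to 69.7% in the other females, and without it 50 of the 53 genes were found. The adipocyte marker list had 5 genes in the table, at a median of 1198 reads per SNP and animal, and the brown adipocyte list 6 genes at 289 reads. The fibroblast list had 4 genes at 1500.5 reads, the endothelial list 5 at 267 and the macrophage list 3 at 32. The adrenal cortex, smooth muscle and skeletal muscle lists had 1 gene each, and the kidney and erythroid lists none. A gene is in the table only if it has a SNP that passed the read filter, so these counts do not show that a cell type was absent.

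At a heterozygous SNP the reads of a gene come from both of its chromosome copies, and their ratio compares the copies within the same nucleus, so that conditions acting on both copies alike cancel. Sequence that regulates a gene on its own chromosome shifts the ratio, and where a coding SNP is not always inherited with the same regulatory variant, the shift may point either way in different animals. In an imprinted gene the favoured copy depends on the parent that transmitted it, so that the reference allele is favoured in some animals and the alternate allele in others. Imprinted genes such as IGF2 and IGF2R were left out by name here, so nothing is read from the 0 members on the list of imprinted genes, of which 18 could have met the criterion.

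One SNP per gene, called the leading SNP here, was the one with the most animals on the less frequent side. The 53 leading SNPs had 639 values of heterozygous fetuses with 30 or more reads, of which 217 lay above 0.5 by more than 3 standard errors, 209 below it by as much and 213 between. In 7 genes at least 4 fetuses lay on the less frequent side, in 15 genes 3 did and in 31 genes 2 did. The distance from the lowest to the highest fetus ran from 0.0621 to 0.748 between genes, with a median of 0.384, and was 0.5 or more in 17 genes. Summed over animals the opposite departures partly cancelled: the summed reference share lay within 0.05 of 0.5 at 30 of the 53 leading SNPs. Tested for AI on reads pooled over animals by the Poisson likelihood ratio, 42 of the 53 had an unadjusted p under 0.05, next to 45.0% of all 24244 SNPs tested, but this rests on the same shares and nothing is read from it. No fetus stood apart, since 56.3% to 75.0% of each fetus's values at these SNPs departed from 0.5.

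**Figure D1:**
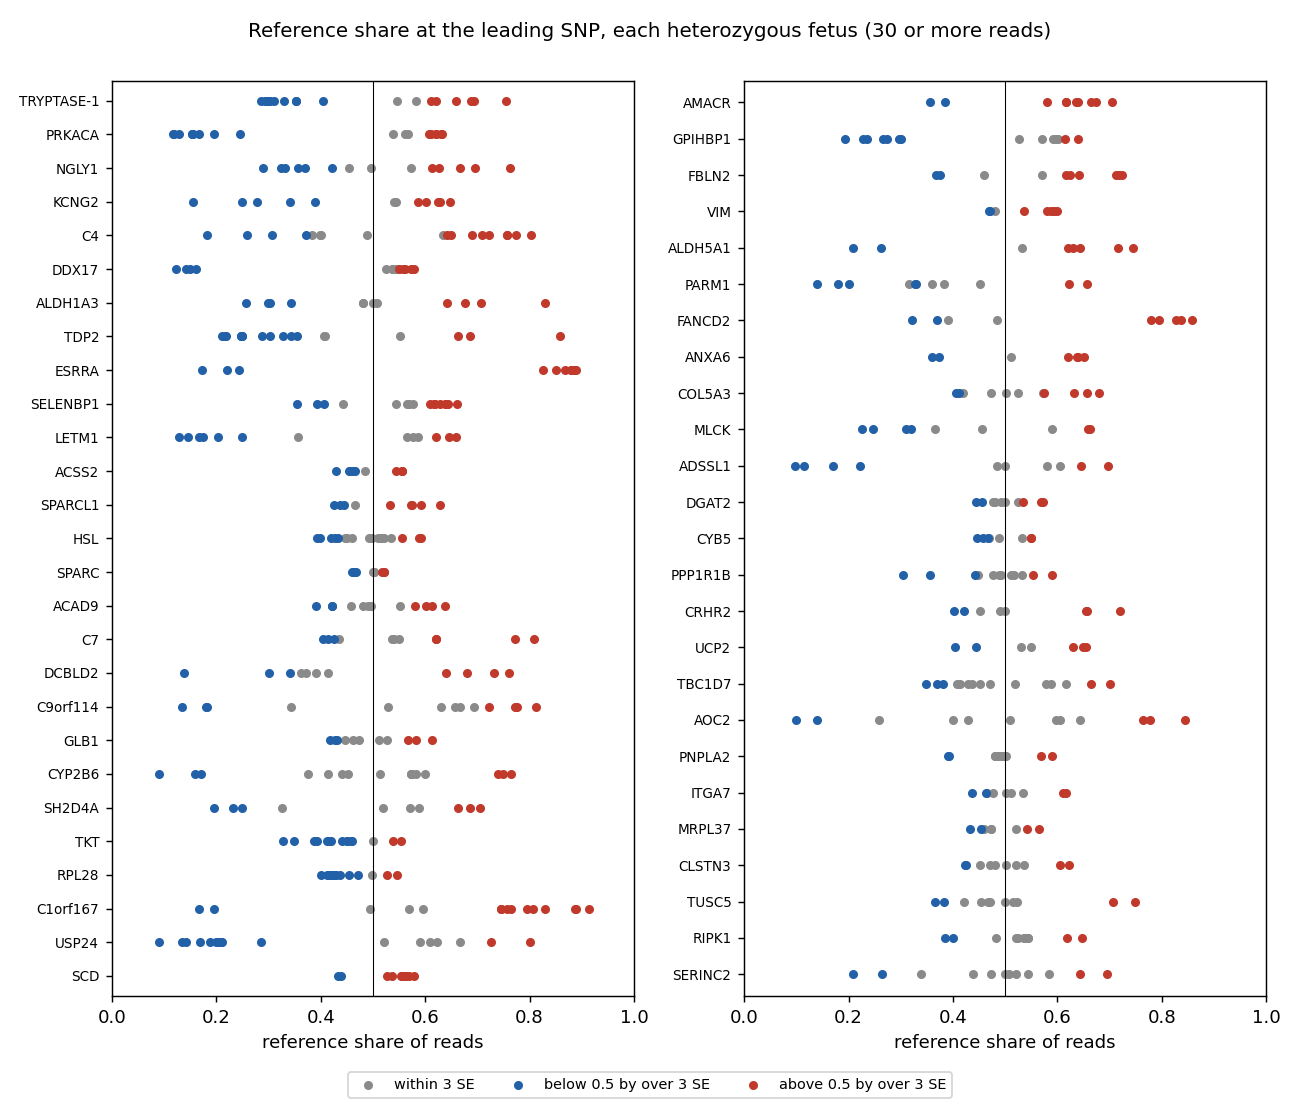
Reference share of reads (x axis, 0 to 1) of every heterozygous fetus with 30 or more reads at the leading SNP of 52 of the 53 genes (rows). Red points lie above 0.5 by more than 3 standard errors of counting, blue points below it by as much and grey points between, and every row holds at least 2 red and 2 blue points.

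These SNPs differed from the others in ways that bear on how a share is measured. The 90 SNPs had a median of 351 reads per heterozygous animal, against 69.0 over all SNPs that could have met the criterion. Of the 90, 32.2% were called heterozygous in 15 or more animals and 23.3% had another SNP within 5 bp, against 9.60% and 10.0%. Missense SNPs were 31.1% of the 90 and 19.4% of all, and synonymous SNPs 46.7% and 57.4%. The leading SNPs of TRYPTASE-1, PRKACA, C4, TDP2, HSL and USP24 were called heterozygous in 18 of 18 fetuses, with no homozygote of either kind. TRYPTASE-1, C4, CYP2B6, AOC2 and RPL28 belong to families with closely similar copies or pseudogenes, so that their reads may have been divided between copies and their shares are uncertain. Animals called homozygous at a leading SNP, with 20 or more reads, carried few reads of the other allele: the highest such animal had a median of 0.317% over 47 SNPs, and exceeded 5% in DCBLD2, CYP2B6 and C1orf167.

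On the lipid list, 5 of the 29 genes that could have met the criterion did, against 0.985% of all genes. The genes on that list also had more reads, with a median of 265 per SNP and animal against 61.0 over all genes, and the part of depth in this count was not tested. Not on the list, but close to fat breakdown, was PRKACA, the catalytic subunit of the kinase that carries the signal of noradrenaline to the lipid droplet. At the leading SNP of PRKACA, in an intron (Oar v3.1 assembly, chromosome 5, position 9711290), the lowest of 18 fetuses had a reference share of 0.118, the median was 0.391 and the highest 0.632. The fetuses formed 2 sets, 9 at 0.245 or less and 9 at 0.538 or more, with none between. A neighbouring SNP 1 bp away split the fetuses in the same way: the 9 low fetuses were called homozygous alternate there and the 9 high ones heterozygous. The part of these adjacent SNPs in the share was not tested. HSL, the older name of LIPE, encodes hormone-sensitive lipase, which that kinase activates, and its share ran from 0.392 over 0.496 to 0.592 (lowest, median and highest) in 18 fetuses, at a missense SNP with neighbouring SNPs within 5 bp. PNPLA2, the triglyceride lipase that starts lipolysis, ran from 0.391 over 0.487 to 0.591 in 13 fetuses. In both lipases the departures were thus smaller than those in PRKACA. GPIHBP1, which anchors lipoprotein lipase in capillaries, ran from 0.194 over 0.413 to 0.640 in 14 fetuses, with 7 at 0.301 or less and 7 at 0.526 or more. All 14 were also heterozygous at a SNP 3 bp away, whose part in the share was not tested. DGAT2, which makes triglyceride, had a narrow spread, from 0.444 over 0.496 to 0.572 at a median of 2724.5 reads, and SCD, the fatty acid desaturase, had 9 fetuses above and 2 below 0.5 by more than 3 standard errors, from 0.434 over 0.555 to 0.578. ACSS2, which makes acetyl-CoA from acetate, the main lipid precursor in ruminants, met the criterion at 5 SNPs, and at the leading one the share ran from 0.429 over 0.466 to 0.556 in 9 fetuses. TUSC5, a membrane protein of adipocytes, ran from 0.366 over 0.471 to 0.750 in 11 fetuses, of which 2 stood above the rest by 0.184. CLSTN3, a membrane protein of the calsyntenin family, ran from 0.422 over 0.491 to 0.623 in 10 fetuses.

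Among genes of mitochondria and energy metabolism, ESRRA had the widest separation of all 53 genes. ESRRA encodes a nuclear receptor that drives mitochondrial genes in brown fat, and is on the brown fat list, of which 11 genes could have met the criterion. The leading SNP lay downstream of the gene (chromosome 21, position 41921218). There 3 of 12 fetuses had shares of 0.173 to 0.243 and the other 9 had shares of 0.826 to 0.889. The 3 low fetuses had the fewest reads, 37, 59 and 81, against 191 to 295 in the other 9. Beside it lay 3 further SNPs of the gene that met the criterion. All 12 fetuses were also heterozygous at the SNPs 1 bp away on both sides and at 1 SNP 5 bp away. The part of the adjacent SNPs and of read number in the share was not tested. At a SNP 5268 bp away the 2 sets were not seen. LETM1, an ion transporter of the inner mitochondrial membrane, ran from 0.129 over 0.356 to 0.658 in 13 fetuses, with 7 at 0.356 or less and 6 at 0.566 or more. UCP2, a mitochondrial carrier related to the uncoupling protein UCP1, ran from 0.404 over 0.549 to 0.654 in 7 fetuses. These 3 genes thus differed widely in how far apart the animals stood. ACAD9, needed to assemble respiratory complex I, ran from 0.391 over 0.493 to 0.637 in 12 fetuses, and MRPL37, of the mitochondrial ribosome, from 0.432 over 0.473 to 0.565 in 8. AMACR, which prepares branched fatty acids for breakdown, had 8 fetuses at 0.580 or more and 2 at 0.386 or less. All 10 were also heterozygous at SNPs 2 and 3 bp away, whose part in the share was not tested. TKT, an enzyme of the pentose phosphate pathway, had 13 of 16 fetuses below 0.5 and 2 above it by more than 3 standard errors, from 0.328 over 0.430 to 0.554. The lists of fatty acid oxidation, with 19 genes that could have met the criterion, and of oxidative phosphorylation, with 38, held 0 members, which is not a result where 0.985% of all genes met it.

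Among genes of the extracellular matrix and of cell shape, SPARC, a collagen-binding matrix protein, was the deepest of the leading SNPs, at a median of 6824 reads, and ran from 0.460 over 0.501 to 0.522 in 10 fetuses, the smallest spread of the 53 genes. Its relative SPARCL1 met the criterion at 4 SNPs and ran from 0.425 over 0.533 to 0.628 in 9 fetuses. FBLN2, a fibulin of elastic and basement membrane matrix, ran from 0.368 over 0.620 to 0.725 in 10 fetuses, and COL5A3, a chain of type V collagen, from 0.406 over 0.524 to 0.680 in 11. Of the 57 matrix genes that could have met the criterion, SPARC, FBLN2 and COL5A3 did, beside 0.985% of all genes. ITGA7, a laminin receptor subunit, ran from 0.437 over 0.502 to 0.616 in 9 fetuses. VIM, the intermediate filament protein of mesenchymal cells, ran from 0.470 over 0.558 to 0.599 in 8, and ANXA6, a calcium-dependent membrane-binding protein, from 0.360 over 0.620 to 0.652 in 7. MLCK, the myosin light chain kinase, ran from 0.226 over 0.366 to 0.662 in 9, a wider spread than in the other genes of this group.

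Among genes of mast cells, complement and inflammation, TRYPTASE-1 and C4 had wide spreads. TRYPTASE-1, a mast cell protease, met the criterion at 9 of its 17 SNPs, and at the leading one 10 of 18 fetuses lay between 0.286 and 0.404 and 8 at 0.547 or more. C4, a component of the classical complement pathway, ran from 0.183 over 0.637 to 0.804 in 18 fetuses. C7, of the membrane attack complex, ran from 0.403 over 0.540 to 0.809 in 11 fetuses at a median of 464 reads. RIPK1, a kinase of inflammatory cell death, ran from 0.385 over 0.536 to 0.647 in 11.

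Enzymes of detoxification and of amine metabolism formed a further group. ALDH1A3, which makes retinoic acid, had 4 of 12 fetuses on each side of 0.5 by more than 3 standard errors, from 0.256 over 0.491 to 0.829. CYP2B6, a cytochrome P450, ran from 0.0896 over 0.543 to 0.764 in 16 fetuses, and ALDH5A1, an enzyme of GABA breakdown, from 0.208 over 0.626 to 0.745 in 8, of which the 2 lowest were the 2 called homozygous alternate at a SNP 4 bp away. C1orf167, an uncharacterised gene, had 10 of 15 fetuses above 0.5 and 2 below it by more than 3 standard errors, from 0.167 over 0.756 to 0.914. CYB5, an electron carrier of the endoplasmic reticulum, ran from 0.445 over 0.479 to 0.550 in 8 fetuses, AOC2, an amine oxidase, from 0.100 over 0.553 to 0.844 in 12 at a median of only 42.5 reads, and SELENBP1, which oxidises methanethiol, from 0.355 over 0.593 to 0.661 in 16.

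The remaining genes had varied functions. NGLY1, which strips glycans from misfolded proteins, had 5 fetuses above and 6 below 0.5 by more than 3 standard errors among 14, from 0.290 over 0.475 to 0.763. KCNG2, a modifying subunit of potassium channels, had 5 of 12 on each side of 0.5 by as much, from 0.156 over 0.541 to 0.647. DDX17, an RNA helicase, had 4 fetuses at 0.123 to 0.160 and 11 at 0.525 to 0.579, with none between. TDP2, a DNA repair enzyme, had 12 of 18 fetuses below 0.5 by more than 3 standard errors, with 1 fetus alone at 0.858, and FANCD2, of the Fanconi anaemia repair pathway, ran from 0.321 over 0.779 to 0.859 in 9. RPL28, of the large ribosomal subunit, had 11 of 14 fetuses between 0.401 and 0.472 and 2 above 0.5. CRHR2, a receptor of stress peptides, ran from 0.403 over 0.494 to 0.719 in 8, and PPP1R1B, a phosphatase inhibitor controlled by cAMP, from 0.304 over 0.490 to 0.590 in 12. Spreads as wide as those of NGLY1 were also seen in genes of lower read numbers. USP24, a deubiquitinase, had 10 of 17 fetuses at 0.286 or less, DCBLD2, a membrane receptor, ran from 0.138 over 0.391 to 0.761 in 11, and C9orf114, a putative RNA methyltransferase, from 0.135 over 0.657 to 0.812 in 13 at a median of 52 reads. The leading SNP of DCBLD2 had another SNP 3 bp away. ADSSL1, a purine enzyme of muscle, ran from 0.0968 over 0.492 to 0.697 in 10 at 52 reads, PARM1, a membrane glycoprotein, from 0.140 over 0.330 to 0.656 in 11, and SH2D4A, a signalling adaptor, from 0.196 over 0.545 to 0.705 in 10. GLB1, the lysosomal beta-galactosidase, was narrower, from 0.418 over 0.473 to 0.614 in 11. TBC1D7, a subunit of the complex that restrains mTOR, ran from 0.348 over 0.451 to 0.700 in 15, and SERINC2, a membrane protein, from 0.209 over 0.503 to 0.694 in 12.

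In 12 of the 53 genes, neighbouring fetuses in the order of shares were separated by a gap of at least 0.2. The gap was 0.583 in ESRRA, 0.365 in DDX17, 0.295 in FANCD2, 0.293 in PRKACA and 0.269 in ALDH5A1, and in C1orf167 it lay between 0.195 and 0.495. In ESRRA and DDX17 the fetuses on each side of the gap stood close together, whereas those of C1orf167 above the gap spread from 0.495 to 0.914.

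**Figure D2:**
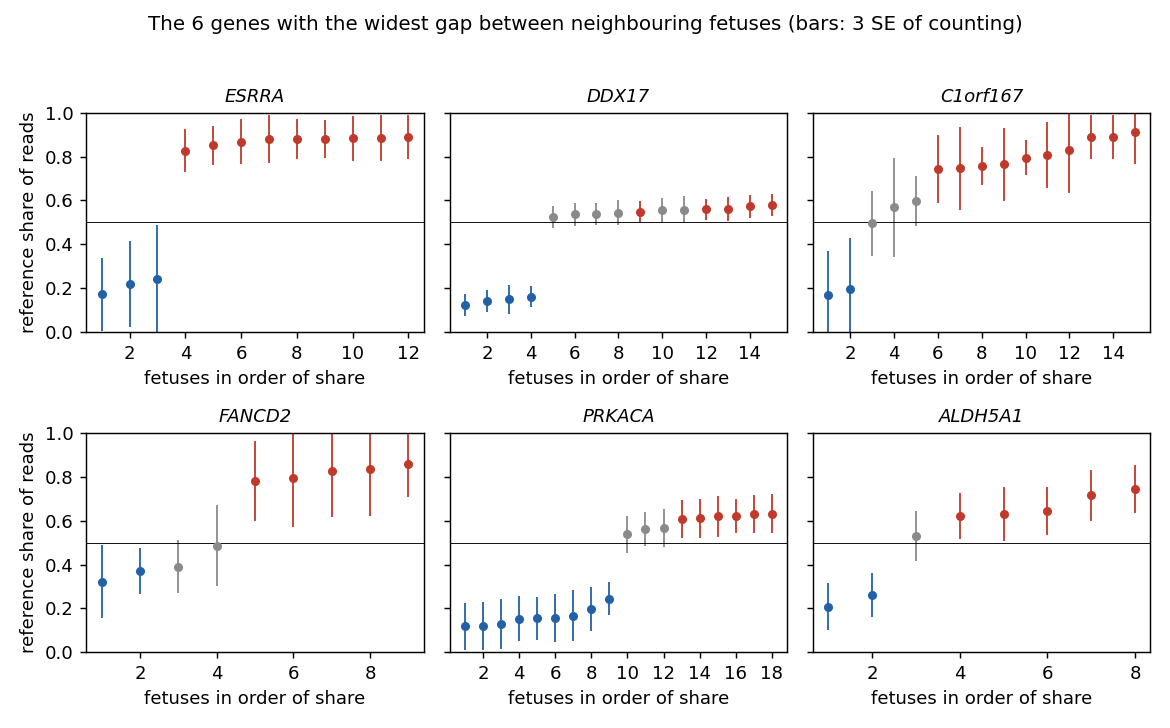
Reference share (y axis) of each heterozygous fetus, ordered by share (x axis), at the leading SNP of the 6 genes with the widest gap, with bars of 3 standard errors of counting. ESRRA and DDX17 show 2 flat sets with no fetus between 0.243 and 0.826 or between 0.160 and 0.525.

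Because all fetuses had the same sire, the haplotype that each inherited from him could be inferred from genotype calls alone, at SNPs of other genes along the chromosome, without use of the shares. Homozygous calls at 109190 combinations of animal and SNP where the sire was heterozygous fitted the inferred haplotype in 99.9% of cases. Whether the sire was heterozygous at a SNP, and which haplotype held which allele, was fitted to these same calls, so this fit is partly built in. As a check, the paternal share in IGF2R, imprinted with the maternal copy active in sheep, was between 0.0769 and 0.189 in 32 of 32 values over 5 SNPs, and in GRB10 it was below 0.5 in 22 of 22. At the GRB10 SNPs and some of those of IGF2R the sire was homozygous, so the paternal allele there did not rest on the inferred haplotype. Where he was heterozygous in IGF2R, the paternal share ran from 0.0769 to 0.145 (position 82910382) and from 0.0936 to 0.188 (position 82949048). In IGF2, which is expressed from the paternal copy, the median paternal share was 0.717, but 4 of 21 values lay below 0.5. The 21 values came from 2 SNPs close together, and the SNPs differed. At position 48680503 the paternal share ran from 0.711 over 0.810 to 0.880 (lowest, median and highest) in 11 fetuses. At position 48680501 it ran from 0.3125 over 0.514 to 0.717 in 10, so the higher paternal copy was clear at only 1 of them. With 1 sire, an effect of paternal transmission and an effect of the particular haplotypes of this sire cannot be told apart.

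The parent of origin was known in at least 1 fetus at 42 of the leading SNPs, and there the paternal allele was higher by more than 3 standard errors in 164 values and the maternal allele in 132. At 25 of the 42 every heterozygous fetus of known origin had the same paternal allele, so the criterion itself all but fixed departures to both parents there and nothing is read from them. Only at the other 17, where the sire transmitted both of his alleles among these fetuses, could the parents be told from the alleles. At 12 of the 17 some fetuses departed to the paternal and others to the maternal copy, and 5 departed to 1 parent alone. FANCD2 and C7 had departures only to the paternal allele, in 7 of 9 and 7 of 11 fetuses, and ANXA6, PNPLA2 and RIPK1 only to the maternal allele, in 6 of 7, 4 of 12 and 4 of 11. The parent of origin was not known at the leading SNPs of the other 11 genes. Of the 25, 17 had a homozygous sire, and at 8 he was heterozygous but the fetuses of known origin had all received the same haplotype from him: ESRRA, SPARCL1, SPARC, GLB1, SH2D4A, VIM, PARM1 and MRPL37. In ESRRA 3 of 11 such fetuses had the paternal copy higher and 8 the maternal copy, which restates their low and high reference shares, and nothing is read from it.

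**Figure D3:**
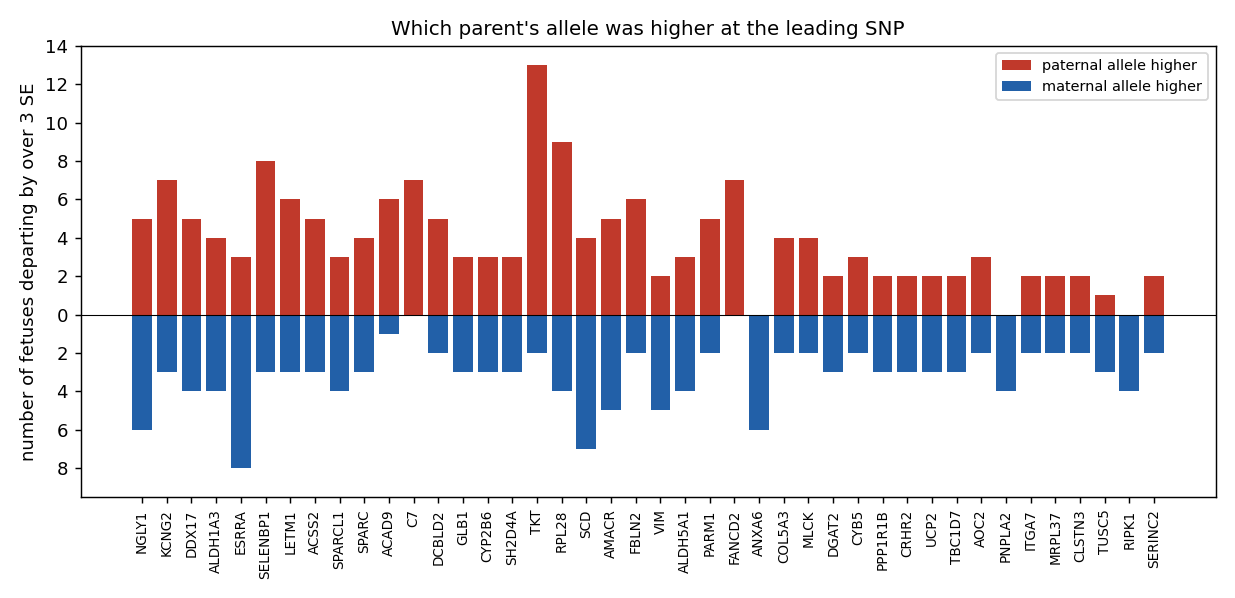
Number of fetuses (y axis) in which the paternal allele (red, upward) or the maternal allele (blue, downward) was higher by more than 3 standard errors at the leading SNP of the 42 genes (x axis) with a known parent of origin. FANCD2 and C7 have no downward bar, and ANXA6, PNPLA2 and RIPK1 have no upward bar.

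The shares were then compared between fetuses that had received the reference and the alternate allele from the sire, at SNPs where he was heterozygous, with limma on log2 of the ratio of reference to alternate reads across all such SNPs. A positive difference means that the paternal allele was higher. Its size is the difference between these sets of fetuses, not the log2 ratio of paternal to maternal reads. Over the 4994 SNPs tested 1.72% had an adjusted p under 0.05, and among 21 tested SNPs of 14 members that met the criterion, 10 SNPs of 5 genes did: FANCD2, ANXA6, C7, PNPLA2 and ACAD9. These members were chosen for a wide spread between fetuses, so the share of them called is not set against that background as a result. The test shares the spread between SNPs, which may be too little for such genes, and an exact permutation test of each SNP is therefore given as well. Without adjustment the latter gave a p under 0.05 at 11 of the 21 SNPs and at 8.27% of all. Non-overlap of the sets, given below, is a description only, because its share over all tested SNPs is not given. It was also seen at SNPs not called, as in RPL28 at position 59374188, with 8 against 2 fetuses (limma adjusted p = 0.821).

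In FANCD2, at a missense SNP on chromosome 19 at position 16642538, the 5 fetuses with a paternal reference allele had reference shares of 0.779, 0.795, 0.827, 0.837 and 0.859, and the 4 with a paternal alternate allele 0.321, 0.369, 0.390 and 0.485. The sets did not overlap, and the difference on the log2 scale was 2.79 ± 0.25 (SE), with a limma adjusted p of 3.56e-07 and a two-sided exact permutation p of 0.00794, the smallest that 5 against 4 allow. Reads were few here, 44 to 203 per fetus. In ANXA6 the direction was the opposite: at a synonymous SNP the 2 fetuses with a paternal reference allele had shares of 0.360 and 0.374 and the 5 others 0.512, 0.620, 0.638, 0.640 and 0.652, so that the maternal allele was higher (log2 difference -1.45 ± 0.18 (SE), limma adjusted p = 7.82e-05, exact permutation p = 0.0476). A SNP of ANXA6 21945 bp away gave -1.46.

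C7 was tested at 5 SNPs where the sire was heterozygous, and the paternal allele was higher at all 5. The log2 difference between the sets of fetuses was 1.30 to 1.45. These 5 SNPs share fetuses and are not independent of each other. At position 33517627 of chromosome 16 the reference share averaged 0.644 ± 0.111 (SD, n = 7) with a paternal reference allele and 0.407 ± 0.035 (SD, n = 4) with a paternal alternate allele, without overlap (limma adjusted p = 0.00558, exact permutation p = 0.00606). With a fit that shares less of the spread with SNPs of unusually wide spread, the adjusted p in C7 was 0.141. In PNPLA2 the 2 fetuses with a paternal alternate allele had shares of 0.569 and 0.591, above all 10 with a paternal reference allele, which ranged from 0.391 to 0.501 (log2 difference -0.65 ± 0.14 (SE), limma adjusted p = 0.0159, exact permutation p = 0.0303). When SNPs within 1 Mb of PNPLA2 were left out of the haplotype inference the difference was -0.22 and the adjusted p 0.694. In ACAD9, at position 58743501 of chromosome 19, the means were 0.548 ± 0.061 (SD, n = 5) and 0.427 ± 0.056 (SD, n = 7), which overlapped (log2 difference 0.71 ± 0.16 (SE), limma adjusted p = 0.0159, exact permutation p = 0.0101), and without fetus 7 the adjusted p was 0.0580 and with fetuses weighted by reads 0.0511. RIPK1, with departures to the maternal allele alone, had a difference of -0.58 ± 0.19 (SE) and a limma adjusted p of 0.180.

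At SNPs where the sire was homozygous, the same comparison was made between fetuses that received his haplotype 1 and his haplotype 2, whose numbers are arbitrary on each chromosome. Here every heterozygous fetus had the same paternal allele, and a difference means that this allele was read at another level with 1 haplotype of the sire than with the other. Of 7120 SNPs 1.74% were called, and among 44 tested SNPs of 25 members that met the criterion, 8 SNPs of 7 genes were, among them COL5A3, FBLN2, CRHR2, ALDH1A3, CYB5 and C1orf167. The exact permutation test gave an unadjusted p under 0.05 at 13 of the 44 SNPs and at 7.85% of all.

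COL5A3 had the most extensive result. At position 12223393 of chromosome 5 all 18 fetuses were heterozygous, and the 10 with haplotype 1 had shares from 0.524 to 0.663 and the 8 with haplotype 2 from 0.357 to 0.490, without overlap (log2 difference 0.87 ± 0.13 (SE), limma adjusted p = 0.000197, exact permutation p = 2.29e-05). With no homozygote of either kind and the allele of the sire not resolved, the genotype calls at this SNP are uncertain. At the leading SNP, position 12223448, 11 fetuses were heterozygous and the log2 difference was 0.96 ± 0.18 (SE) (limma adjusted p = 0.00395, exact permutation p = 0.00606). Of 9 SNPs of COL5A3 tested in this way 8 were called, with differences of 0.76 to 0.98, and at the 7 called SNPs where the allele of the sire could be told, the paternal copy was higher with haplotype 1 at each. These SNPs share fetuses and are not independent of each other. In FBLN2, at a missense SNP, the 3 fetuses with haplotype 2 had shares of 0.368, 0.376 and 0.459, and the 7 with haplotype 1 ranged from 0.571 to 0.725 (log2 difference 1.54 ± 0.20 (SE), limma adjusted p = 0.000256, exact permutation p = 0.00833). This SNP of FBLN2 and position 12223393 of COL5A3 kept an adjusted p of 0.00214 or less under every alternative limma fit that tested them. For COL5A3 this covers only the SNP whose genotype calls are uncertain. The alternatives are not given for its leading SNP, where the limma adjusted p was 0.00395.

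In CYB5 the fetuses with haplotype 1 had shares of 0.489, 0.533, 0.550 and 0.550 and those with haplotype 2 shares of 0.445, 0.457, 0.466 and 0.469 (log2 difference 0.41 ± 0.09 (SE), limma adjusted p = 0.0171, exact permutation p = 0.0286). Without fetus 3, 5, 15 or 17 the adjusted p in CYB5 was 0.0574, 0.0522, 0.0592 or 0.0551, and it was 0.0801 when SNPs within 1 Mb were left out of the inference and 0.0556 at a posterior of 0.99. In CRHR2 the shares were 0.489, 0.655, 0.656 and 0.719 with haplotype 1 and 0.403, 0.421, 0.452 and 0.499 with haplotype 2, overlapping at 1 value (limma adjusted p = 0.00736, exact permutation p = 0.0571). In ALDH1A3 the paternal allele was higher with haplotype 1, with reference shares of 0.336 ± 0.087 (SD, n = 5) against 0.606 ± 0.136 (SD, n = 6), where the alternate allele was the paternal one (limma adjusted p = 0.00769, exact permutation p = 0.00649). The fit that shares less of the spread gave adjusted p values of 0.235 in CRHR2 and 0.148 in ALDH1A3, and leaving out SNPs within 1 Mb gave 0.374 in ALDH1A3.

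C1orf167 was called at 6 of 11 SNPs tested, and the paternal copy was higher with haplotype 2 at all 5 called SNPs where the allele of the sire could be told. At position 40024066 of chromosome 12, a SNP that did not meet the criterion, the reference share was 0.760 ± 0.032 (SD, n = 9) with haplotype 1 and 0.629 ± 0.028 (SD, n = 4) with haplotype 2 (limma adjusted p = 0.000766, exact permutation p = 0.0014). At the leading SNP of C1orf167 the sets overlapped, at 0.795 ± 0.106 (SD, n = 9) and 0.501 ± 0.271 (SD, n = 6). There the limma adjusted p of 0.0304 was 0.223 when less of the spread was shared, 0.127 with fetuses weighted by reads and 0.0519 to 0.123 without fetus 2, 6, 8, 9, 10, 12 or 16. The library kit does not mark strand, so reads of overlapping genes cannot be told apart.

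**Figure D4:**
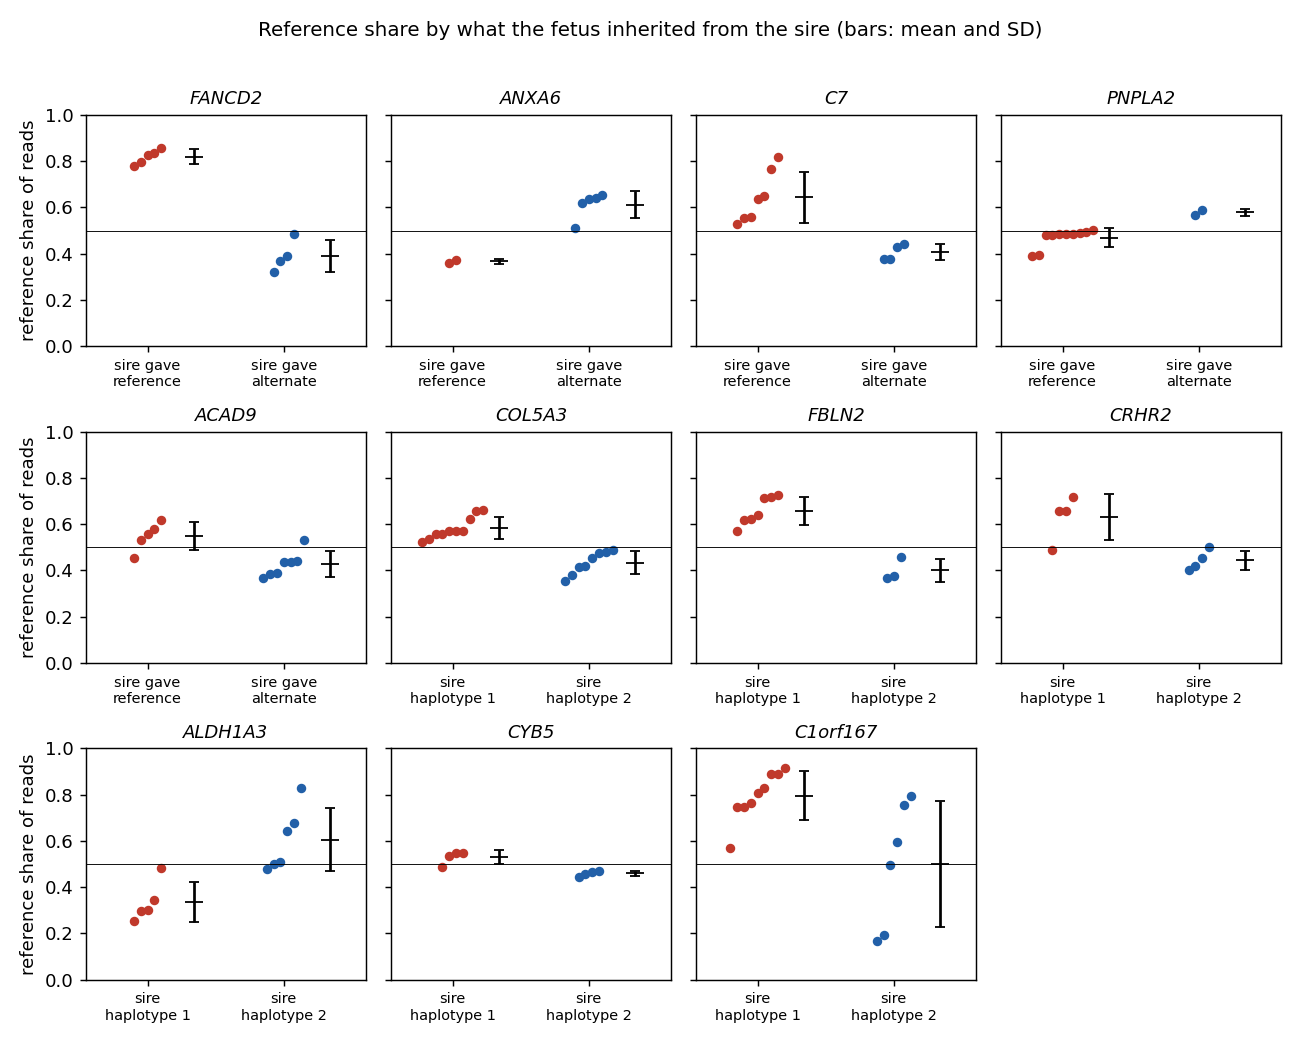
Reference share (y axis) of heterozygous fetuses by what each inherited from the sire (x axis), for 11 of the 12 members called, at their SNP of smallest p that met the criterion: his reference or alternate allele in FANCD2 to ACAD9, his haplotype 1 or 2 in COL5A3 to C1orf167. Points are fetuses and bars the mean and SD. The sets do not overlap in FANCD2, ANXA6, C7, PNPLA2, COL5A3, FBLN2 and CYB5, which is a description only, since sets this small also do not overlap at SNPs that were not called.

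Counting every SNP of the members, 20 of the 50 genes tested in either comparison had a called SNP, where 3.30% of all 3874 genes tested did, the members again having been chosen for spread. The 8 genes added in this way were ADSSL1, ALDH5A1, AOC2, CYP2B6, DDX17, MLCK, TRYPTASE-1 and VIM. In ADSSL1, 5 fetuses with haplotype 1 had a mean share of 0.532 ± 0.060 (SD, n = 5) at position 67852447 of chromosome 18 and the others 0.897 and 0.921 (limma adjusted p = 0.000197, exact permutation p = 0.0476). In DDX17, the 4 fetuses of the low set had all received haplotype 2, as had 4 of the 11 others, and at the leading SNP the limma adjusted p was 0.140.

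Where a gene had a further SNP at least 1 kb from the leading SNP with at least 6 fetuses heterozygous at both, the shares at the pair were compared. Such a partner existed for 35 of the 53 genes, and the size of r had a median of 0.801 and was 0.9 or more in 12 genes. The points of each r are the same libraries, and the sign of r depends on which alleles lie together, so r is a description only. In ANXA6 r was 0.997 over 7 fetuses at 21945 bp, in VIM 0.983, in NGLY1 0.978 and in MLCK 0.951 at 42983 bp. In these genes the spread between animals was thus seen again at another SNP of the gene. Distances are along the genome, and whether the same read pairs covered both SNPs was not determined. Under 0.5 in size were 12 genes. In C4, RPL28, HSL, ITGA7 and LETM1, of these, every fetus that departed at the leading SNP departed also at the partner, where all shares lay on 1 side of 0.5: 0.638 to 0.890 in C4, 0.568 to 0.592 in RPL28, 0.555 to 0.609 in HSL, 0.157 to 0.206 in ITGA7 and 0.193 to 0.342 in LETM1. In ESRRA, at a partner 5268 bp away, 11 of the 12 fetuses departed at both SNPs and all 12 had shares of 0.174 to 0.372, with r = 0.41. In DCBLD2, C9orf114, RIPK1, GPIHBP1 and USP24, no fetus that departed at the leading SNP departed at the partner.

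**Figure D5:**
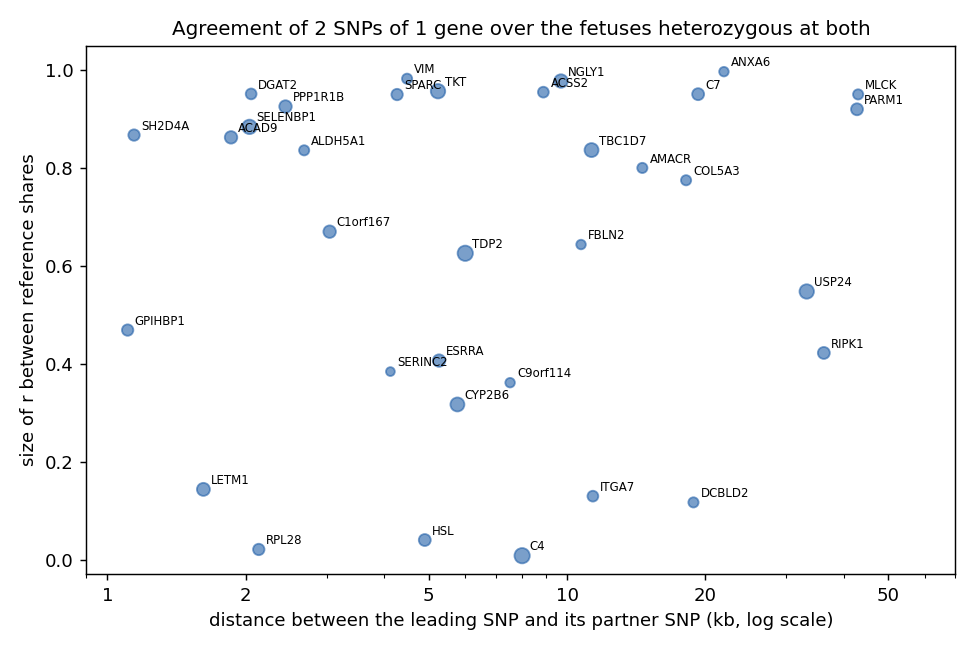
Size of the correlation r (y axis) between reference shares at the leading SNP and at its partner SNP against their distance in kb (x axis, log scale), 1 point per gene for 34 of the 35 genes, with larger points for more shared fetuses. ANXA6, MLCK and VIM lie near 1 at 21.9, 43.0 and 4.49 kb, and C4, HSL, RPL28, ITGA7, LETM1 and DCBLD2 lie under 0.2.

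A few members were neighbours. FBLN2 and ACAD9 lay 580805 bp apart on chromosome 19, with r = 0.926 between their leading SNPs over the 6 fetuses heterozygous at both. TDP2 and ALDH5A1, 87782 bp apart on chromosome 20, had r = -0.0097 over 8 fetuses, and CYP2B6 and HSL, 396057 bp apart on chromosome 14, had r = -0.26 over 16. ANXA6 and SPARC lay 490152 bp apart on chromosome 5 with 5 fetuses in common, too few for a correlation here.

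At the threshold, the members with the least margin were VIM, TUSC5 and ITGA7, whose second departure on the weaker side was 3.14, 3.11 and 3.09 standard errors. Just outside were RAPGEF2 at 2.99 and ASGR1 at 2.97. In RAPGEF2 the second lowest and second highest of 15 fetuses were at 0.305 and 0.816, wider apart than the 0.464 and 0.612 of ITGA7, which had more reads.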

How the data were processed

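Per the labels and the study's methods, RNA of 18 fetal perirenal fat samples was sequenced as paired reads, aligned by the authors to Oar v3.1 with STAR, and genotyped from the same reads with GATK (version 3.4-46 in the submitters' processing notes); SNPs with 10 or more reads of each allele in 5 or more animals were kept. The authors deposited raw, unnormalized counts of reference and alternate reads per SNP and animal, with genotype calls. Columns of the authors' own test (statistic, p, higher allele, share) were not used. Reads that mismatch the reference can be lost in alignment, and the median summed reference share was 0.519. Genotypes called from RNA can miss a silent allele.

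The 53 members and all gene lists were chosen with earlier results of these data known. Shares were computed from counts as deposited, and standard errors cover counting error only, since reads without molecular identifiers are not independent molecules. The haplotype received from the sire was inferred with a hidden Markov model (genotype error 0.01, recombination 1e-08 per bp, posterior of at least 0.95), using calls of at least 10 reads at SNPs of other genes heterozygous in at most 14 animals. Differences in log2((reference + 0.5)/(alternate + 0.5)) were tested with limma 3.58.1 in R 4.3.3, with a depth trend, at SNPs with at least 6 animals of 30 reads and 2 of each kind, with Benjamini-Hochberg adjustment over all SNPs tested, and by exact permutation. The haplotype inference and the comparison by sire allele were tested on simulated data, and the comparison by sire haplotype was not. Spread between animals beyond counting was simulated alike at every SNP. The simulation therefore does not cover members chosen for wide spread, and nothing is read from it for them. The summed test was a Poisson likelihood ratio test on reads of heterozygous animals. Samples form 1 group. Each fetus is a separate animal.

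Genes were named by a fixed rule: those with the most animals on the less frequent side, the smallest p in each comparison, membership of the lists and the least margin; the remaining members, and the SNPs of members that did not meet the criterion, were named after their values were seen. Pairs of SNPs in a gene were chosen by the most shared animals. A few genes that the rule names are not reported here. Sequences and a genome of this build were not used here. Alternatives are given in the closing section.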

Additional observations from a re-analysis of the deposited data

How the results depend on the processing

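The number of genes that met the criterion was 53 with 20 reads and 50 with 50 reads per animal, 208 with 2 and 23 with 4 standard errors, 238 with 1 and 22 with 3 animals on each side, 57 (42 of them among the 53) when shares were centred on the median share, 40 without SNPs heterozygous in 15 or more animals, 46 without SNPs that had another SNP within 5 bp, and 47 to 51 when each fetus was left out in turn. By sire allele, 86 SNPs and 5 member genes were called, and 62 to 85 SNPs and 4 to 5 genes when each fetus was left out. By sire haplotype, 124 SNPs and 7 member genes were called, and 94 to 125 SNPs and 5 to 9 genes when each fetus was left out. With the exact permutation test and adjustment over all SNPs, 0 SNPs and 0 member genes were called in either comparison, since few animals limit how small its p can be; at an unadjusted p under 0.05 it called 413 and 559 SNPs, 8.27% and 7.85% of those tested, and 11 and 13 SNPs of members that met the criterion, in 6 and 9 genes. Robust limma, which shares less of the spread with widely spread SNPs and was added after seeing the data, called 92 and 115 SNPs, with 4 and 3 member genes. None of the 20 sire differences recomputed under the alternatives, 10 in each comparison, changed direction where its SNP was tested. CLSTN3 and HSL, with adjusted p of 0.0721 and 0.0616 by sire haplotype, passed 0.05 without fetus 10 (0.0127 and 0.0269). The summed test called 8050 SNPs with animals as replicates in limma, 10166 with the median share as its null and 10643 with animals of 30 or more reads. Depth limits the shares at C9orf114, ADSSL1, USP24, AOC2 and FANCD2, whose median reads per fetus were 42.5 to 68. In ESRRA it limits the shares of the low fetuses, which had 37 to 81 reads. No paired analysis was possible because there is 1 group.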
